A study of Mus musculus with 9 samples.

Results

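The Ms4a genes encode a family of small membrane proteins that cross the membrane several times, and most of them lie side by side in a single chromosomal cluster. Here 8 of them are described in CD11b+ cells of the mouse liver: Ms4a4a, Ms4a4b, Ms4a4c, Ms4a6b, Ms4a6c, Ms4a6d, Ms4a7 and Ms4a8a. They were chosen by gene symbol, out of 45777 genes in the tables, with earlier results of these data already known, so their values below are a description and their adjusted p-values are no independent evidence. All 8 passed the filter on low values (3 or more samples with 1 TPM or more), as did 13820 genes in all. TPM are transcripts per 1000000, a level scaled for transcript length and for the total of a sample.

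The 9 samples are bulk RNA-seq libraries of CD11b+ cells, 3 in each of 3 groups, from mice in which acetaminophen (APAP), given into the peritoneum, had caused acute liver failure. CD11b is a surface integrin of monocytes, macrophages and neutrophils. Every group received APAP, and livers were taken 48 hours after it, so no group is without injury. The control group was treated with PBS (titled APAP). A second group received SIRP-EV, extracellular vesicles given intravenously 8 hours after APAP, derived from the human embryonic kidney line HEK (HEK-EV, titled APAP+HEKSIRP-EV). The last group received MSC derived SIRP-EV (MSC-EV, titled APAP+SIRP-EV). The labels spell out neither SIRP nor MSC and give no strain, age or sex. With no vesicle lacking SIRP among the groups, a part played by SIRP and one played by the vesicles cannot be told apart. The labels do not say whether the samples of a group came from separate animals, so p-values measure only the spread between these samples.

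As background, MS4A proteins act beside immune receptors on leukocytes. Ms4a1 encodes CD20 of B cells, and Ms4a2 encodes the beta chain of the IgE receptor of mast cells and basophils. Other members are myeloid: MS4A4A is a macrophage surface protein that works with the beta-glucan receptor Dectin-1, and human variation in the MS4A4A and MS4A6A region is linked to soluble TREM2. In the injured liver, Ly6C-high monocytes enter from the blood and turn into macrophages, beside the resident Kupffer cells.

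The closest relatives among the 8 genes are the Ms4a4b and Ms4a4c pair and the Ms4a6 trio, and their sequences matter here because reads of near-identical genes may be shared out between them. In pairwise alignment, coding sequences of Ms4a4b and Ms4a4c were 91.7% identical over 678 aligned bases. Ms4a6b was 80.1% identical to Ms4a6d and 74.7% to Ms4a6c, and Ms4a6c was 67.2% identical to Ms4a6d. Ms4a4a was 59.6% identical to Ms4a4b and 59.9% to Ms4a4c. The other pairs lay between 43.5% and 52.4%. Of all stretches of 50 bases in its annotated transcripts, Ms4a6c shared 51.4% with transcripts of other genes, mainly with BE692007, an annotated gene that overlaps it. That share was 8.19% for Ms4a4c, 3.57% for Ms4a6b, 2.54% for Ms4a6d, 2.40% for Ms4a4b and 0.306% for Ms4a7, and no stretch was shared for Ms4a4a or Ms4a8a. BE692007 was itself listed at 2.63 to 3.83 TPM. The levels of Ms4a6c, and of Ms4a4b against Ms4a4c, therefore carry an uncertainty of assignment that these tables do not show.

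Ms4a4b and Ms4a4c, and likewise Ms4a6b and Ms4a6c, also shared sequence upstream of their start sites. The 250 bases before the start are shown for the pairs that shared the longest runs, from the RefSeq table of assembly GRCm38.p6, where 7 of the 8 genes had an entry and Ms4a6d had none. Capitals mark the longest run of bases shared within a pair. Identity was counted over all aligned columns, gaps included. Ms4a4b (chr19:11443308-11443557, plus strand) and Ms4a4c (chr19:11407411-11407660, plus strand) were 68.8% identical and shared a run of 20 bases, which began 41 bases before the Ms4a4b start and 38 bases before the Ms4a4c start:
Ms4a4b: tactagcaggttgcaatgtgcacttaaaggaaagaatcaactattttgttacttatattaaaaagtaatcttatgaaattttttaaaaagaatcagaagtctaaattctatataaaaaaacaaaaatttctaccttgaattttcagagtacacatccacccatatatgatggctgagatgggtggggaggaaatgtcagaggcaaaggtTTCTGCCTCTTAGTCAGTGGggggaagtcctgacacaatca
Ms4a4c: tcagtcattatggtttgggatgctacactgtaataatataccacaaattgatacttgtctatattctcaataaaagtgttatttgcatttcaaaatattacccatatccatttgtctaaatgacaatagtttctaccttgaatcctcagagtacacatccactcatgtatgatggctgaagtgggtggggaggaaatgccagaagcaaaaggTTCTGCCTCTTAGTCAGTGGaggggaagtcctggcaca
Ms4a6b (chr19:11518309-11518558, plus strand) and Ms4a6c (chr19:11469118-11469367, plus strand) shared a longer run of 48 bases, at different distances from the start. It began 118 bases before the Ms4a6b start and 49 bases before the Ms4a6c start. With that offset the alignment spread over 325 columns, against 269 for Ms4a4b and Ms4a4c. Its identity of 45.8% counts unpaired bases as differences and does not give the likeness of the paired bases:
Ms4a6b: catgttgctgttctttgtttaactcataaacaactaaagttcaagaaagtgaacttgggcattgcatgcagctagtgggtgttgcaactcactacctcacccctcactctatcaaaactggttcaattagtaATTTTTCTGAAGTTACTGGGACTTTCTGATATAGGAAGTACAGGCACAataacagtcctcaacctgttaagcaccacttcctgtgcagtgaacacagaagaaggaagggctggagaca
Ms4a6c: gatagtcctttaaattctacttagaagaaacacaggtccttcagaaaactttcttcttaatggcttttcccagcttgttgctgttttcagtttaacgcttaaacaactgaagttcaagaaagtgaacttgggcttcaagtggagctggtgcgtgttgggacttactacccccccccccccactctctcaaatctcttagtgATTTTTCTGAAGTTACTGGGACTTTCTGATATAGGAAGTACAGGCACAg
The files give Ms4a4c from 11404717 and Ms4a6c from 11469353, so by that annotation the Ms4a4c window lies inside the gene and the last bases of the Ms4a6c window overlap its start. Across the other 25 pairs of upstream regions (Ms4a7 has an annotated pair of starts), identity was 42.2% to 50% and the longest shared run was 9 bases. 3 motifs were searched on both strands from 250 bases before to 50 bases after each start, and a match is a description only. The interferon response element core (GAAA, any 2 bases, GAAA) stood in 3.44% of 32851 mouse promoters, the PU.1 motif GAGGAAGT in 3.20% and the AP-1 motif TGACTCA in 5.20%. Of the 7 genes with an entry, Ms4a8a had a match to AP-1, 244 bases before its start. That match was on the strand opposite the gene, and no other match was found.

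All 8 genes lie on chromosome 19 (files' coordinates, mm10) within a stretch of 678563 bases, from 10962289 to 11640851, that holds 21 genes of the family. A run of 8 neighbours from 11321039 to 11604804 holds, in order, Ms4a7, Ms4a4a, Ms4a4c, Ms4a4b, Ms4a6c, Ms4a6b, Ms4a4d and Ms4a6d. Of these, Ms4a4d was the exception, at 0.249 TPM or less in every sample. Ms4a8a lies apart at 11067471 to 11081103, between genes that were listed at 0 in all 9 samples (Ms4a18 and Ms4a20). Ms4a6d, Ms4a7 and Ms4a8a are on the minus strand and the other 5 on the plus strand. The annotation has Gm5692 overlapping Ms4a4c as well as BE692007 overlapping Ms4a6c.

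**Figure D1:**
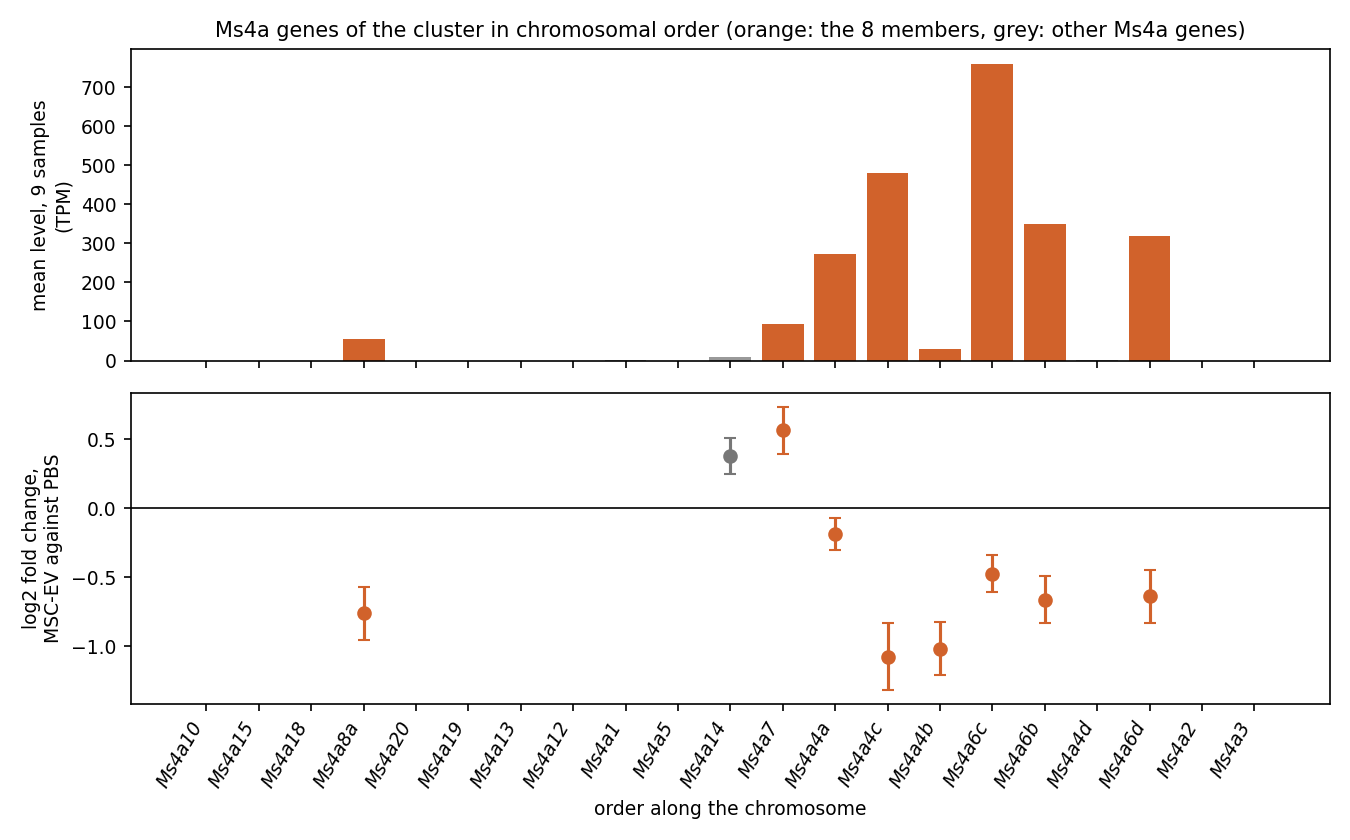
Ms4a genes in their order along the chromosome, with the mean TPM over 9 samples (top, bars) and, for the genes that passed the filter, the log2 fold change of MSC-EV against PBS with its standard error (bottom, points). Levels are concentrated in the run from Ms4a7 to Ms4a6d, and within that run the fold changes go from 0.56 at Ms4a7 to -1.08 at Ms4a4c.

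Some libraries stood apart before any comparison. PBS replicate 1 had the lowest level of the 3 PBS samples for 7 of the 8 genes and the highest for Ms4a7. It also had the lowest ratio of coverage to FPKM, a measure that grows with sequencing depth, at 5.28. That ratio was 6.06 and 6.32 in the other PBS samples and 6.25 to 6.47 in HEK-EV. The MSC-EV samples stood above all others, at 6.58 to 6.84. They also had the most genes above 0, at 21119 to 21172 against 20342 to 21051 elsewhere. Transcripts of pancreatic acinar cells (21 genes listed after their values were known) took 0.00403% to 0.323% of TPM in HEK-EV replicates 1 and 2 and MSC-EV replicates 1 and 3. They took 0.00133% to 0.00154% in the other 5 samples, among them all PBS samples. Itgam, the gene of CD11b, was at 288.7 to 377 TPM in PBS, 339 to 434 in HEK-EV and 196 to 255 in MSC-EV. Ptprc, which encodes the leukocyte protein CD45, was at 515 to 647, 575 to 669 and 418 to 428 TPM, in the same order. Against PBS, Ptprc was lower in MSC-EV (log2 fold change -0.46, limma adjusted p = 0.0271) and Itgam did not pass (-0.53, adjusted p = 0.0553). Fits with depth as a covariate, with these acinar samples as a term (the acinar split) and without PBS replicate 1 are given below. With depth, the median log2 fold change of the 8 genes in MSC-EV against PBS went from -0.65 to -1.08. Since every MSC-EV sample was above all others in the ratio of coverage to FPKM, that fit cannot fully separate depth from treatment. How far the differences in Itgam and Ptprc bear on the Ms4a values was not tested. Numbers of reads are not in these tables, so depth is known only relatively, from the ratio of coverage to FPKM, with no basis for an interval of counting error.

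Ms4a6c was the most abundant member, with a mean of 759 TPM over the 9 samples, above 98.5% of the genes tested. Ms4a4c followed at 479.6 TPM, then Ms4a6b at 350.1, Ms4a6d at 318 and Ms4a4a at 272 TPM. Below these 5 came Ms4a7 at 94.1, Ms4a8a at 55.7 and Ms4a4b at 29.3 TPM. In MSC-EV alone the mean of Ms4a4a (245 TPM) was above that of Ms4a6d (233 TPM). Neighbours in this order did not always differ beyond their spread. Ms4a6b overlapped Ms4a6d, and Ms4a6d overlapped Ms4a4a, in every group. Ms4a4c overlapped Ms4a6b in PBS and MSC-EV, and in PBS Ms4a6c also overlapped Ms4a4c and Ms4a7 overlapped Ms4a8a. Within each of the 9 samples, however, Ms4a6c was above Ms4a4c, and Ms4a4c was above Ms4a6b. Together the 8 genes summed to 1991, 3290.4 and 2906.5 TPM in the PBS samples, 2817, 2319 and 2516 in HEK-EV and 1801, 1742 and 1832 in MSC-EV. Each MSC-EV sum lay below every sum of the other groups, and the lowest PBS sum was that of replicate 1. The HEK-EV sums lay inside the PBS range.

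**Figure D2:**
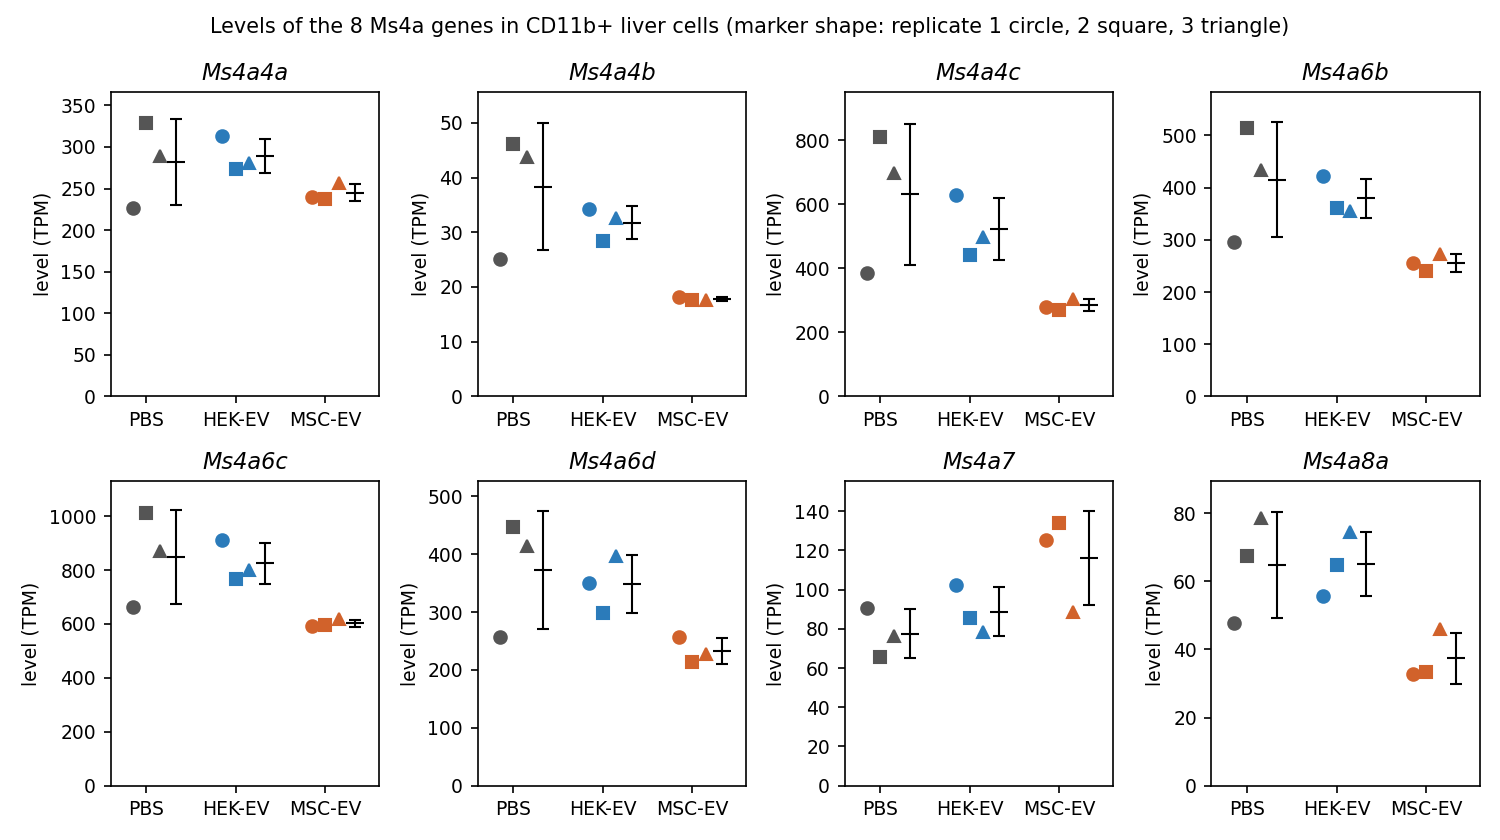
Level of each of the 8 genes (TPM, y axis) in every sample by group, with the mean and SD (black, n = 3 per group) beside the points. The MSC-EV samples lie below all PBS samples for Ms4a4b, Ms4a4c, Ms4a6b, Ms4a6c and Ms4a8a, and PBS replicate 1 (grey circle) is the PBS sample nearest to them.

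Setting MSC-EV against PBS asks how the CD11b+ cells differed after MSC derived vesicles. Levels of 7 of the 8 genes were on average lower in MSC-EV and that of Ms4a7 was higher. The adjusted p was under 0.05 for Ms4a4b and Ms4a4c, both lower, which fell to 0.463 and 0.452 of their PBS means. Among all 13820 genes tested, 5.11% passed in either direction, 1.86% higher and 3.25% lower, and since the 8 were chosen with this contrast known, nothing is read from their count of 2. That split depended on scaling: 36.4% of the genes that passed were higher, against 63.1% with FPKM, 47.2% after median-of-ratios scaling and 44.5% after quantile normalization. The median log2 fold change of the 8 was -0.65, beside 0.0103 over all genes tested. In bulk samples, fewer cells of a type and less RNA per cell cannot be told apart.

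Ms4a4c, a monocyte and macrophage member of the family, was at 384, 809 and 699 TPM in PBS replicates 1 to 3. It was at 630.2, 441 and 498 TPM in HEK-EV and at 279, 271 and 305 in MSC-EV. The MSC-EV samples were below every other sample, while HEK-EV lay inside the PBS range. Against PBS, the log2 fold change was -1.08 (SE 0.242, limma adjusted p = 0.0394), and against HEK-EV it was -0.86 (SE 0.242, adjusted p = 0.0684).

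Ms4a4b, known chiefly as a T cell protein, was at a much lower level but showed the same order of groups. Its TPM were 25.1, 46.2 and 43.8 in PBS, 34.2, 28.4 and 32.7 in HEK-EV, and 18.2, 17.5 and 17.6 in MSC-EV. The MSC-EV samples were close together and below every other sample, and HEK-EV lay inside the PBS range. Their coefficient of variation was 1.89%, against 30.1% in PBS and 9.44% in HEK-EV. Ms4a4b was lower in MSC-EV than in PBS by -1.02 on the log2 scale (SE 0.193, limma adjusted p = 0.0265), and it was the only one of the 8 genes to pass against both PBS and HEK-EV (-0.80, SE 0.193, adjusted p = 0.0443). Defining T cell genes were near 0: Cd3d, Cd3e and Cd3g did not exceed 0.46, 0.54 and 0.90 TPM in any sample. Of the 16 T cell genes listed, 4 passed the filter and 0 had an adjusted p under 0.05 in any comparison. Their summed level was 21.9 to 41.9 TPM in PBS, 26.1 to 34.6 in HEK-EV and 46.2 to 46.6 in MSC-EV. Most of the MSC-EV sum was Il7r, at 30.1 to 36.3 TPM.

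The Ms4a6 trio had smaller differences than Ms4a4b and Ms4a4c. Ms4a6b was at 297, 515 and 434 TPM in PBS, 422, 361 and 355 in HEK-EV and 255, 239.5 and 273 in MSC-EV. The MSC-EV samples did not overlap either group, but the difference from PBS missed the threshold (-0.66, SE 0.171, limma adjusted p = 0.0572), as did that from HEK-EV (-0.56, SE 0.171, adjusted p = 0.0836). Ms4a6c was at 664, 1012 and 871 TPM in PBS, 910.2, 766 and 799 in HEK-EV, and 594, 594 and 618 in MSC-EV. Its MSC-EV samples again lay below all others, with PBS replicate 1 the nearest to them. The log2 fold change was -0.47 against PBS (SE 0.134, adjusted p = 0.0739) and -0.45 against HEK-EV (SE 0.134, adjusted p = 0.0802).

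Ms4a6d, whose product is known as a partner of the macrophage receptor Vsig4, was at 256, 446 and 414 TPM in PBS. Its level was 349.6, 298 and 397 in HEK-EV and 257, 214 and 227 in MSC-EV. MSC-EV replicate 1 lay just above PBS replicate 1, so these groups overlapped, while MSC-EV and HEK-EV did not. The differences were -0.64 against PBS (SE 0.193, limma adjusted p = 0.0858) and -0.57 against HEK-EV (SE 0.193, adjusted p = 0.11).

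Ms4a8a, known from alternatively activated macrophages, was at 47.9, 67.4 and 78.6 TPM in PBS, 55.7, 64.6 and 74.5 in HEK-EV and 32.8, 33.4 and 46.0 in MSC-EV. All MSC-EV samples were below all others, with MSC-EV replicate 3 and PBS replicate 1 the closest. Against HEK-EV the gene fell, with a log2 fold change of -0.79 (SE 0.192, limma adjusted p = 0.0452). Against PBS the nearly equal difference of -0.76 missed the threshold (SE 0.192, adjusted p = 0.0544).

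Ms4a4a and Ms4a7, neighbours in the cluster and both known as macrophage genes, departed from the others. Ms4a4a was at 227, 329 and 289.6 TPM in PBS, 313, 274 and 281 in HEK-EV and 239.9, 238 and 257 in MSC-EV. MSC-EV samples lay within the PBS range and below all HEK-EV samples. The differences were small, at -0.19 against PBS (SE 0.119, limma adjusted p = 0.399) and -0.24 against HEK-EV (SE 0.119, adjusted p = 0.269). Ms4a7 was the one gene with a higher mean in MSC-EV, at 125, 134 and 88.8 TPM against 90.7, 65.7 and 76.3 in PBS and 103, 85.3 and 78.2 in HEK-EV. MSC-EV replicates 1 and 2 were above every other sample, whereas replicate 3 lay just under PBS replicate 1 and inside the HEK-EV range. Its differences of 0.56 from PBS (SE 0.170, adjusted p = 0.0858) and 0.37 from HEK-EV (SE 0.170, adjusted p = 0.229) did not pass.

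**Figure D3:**
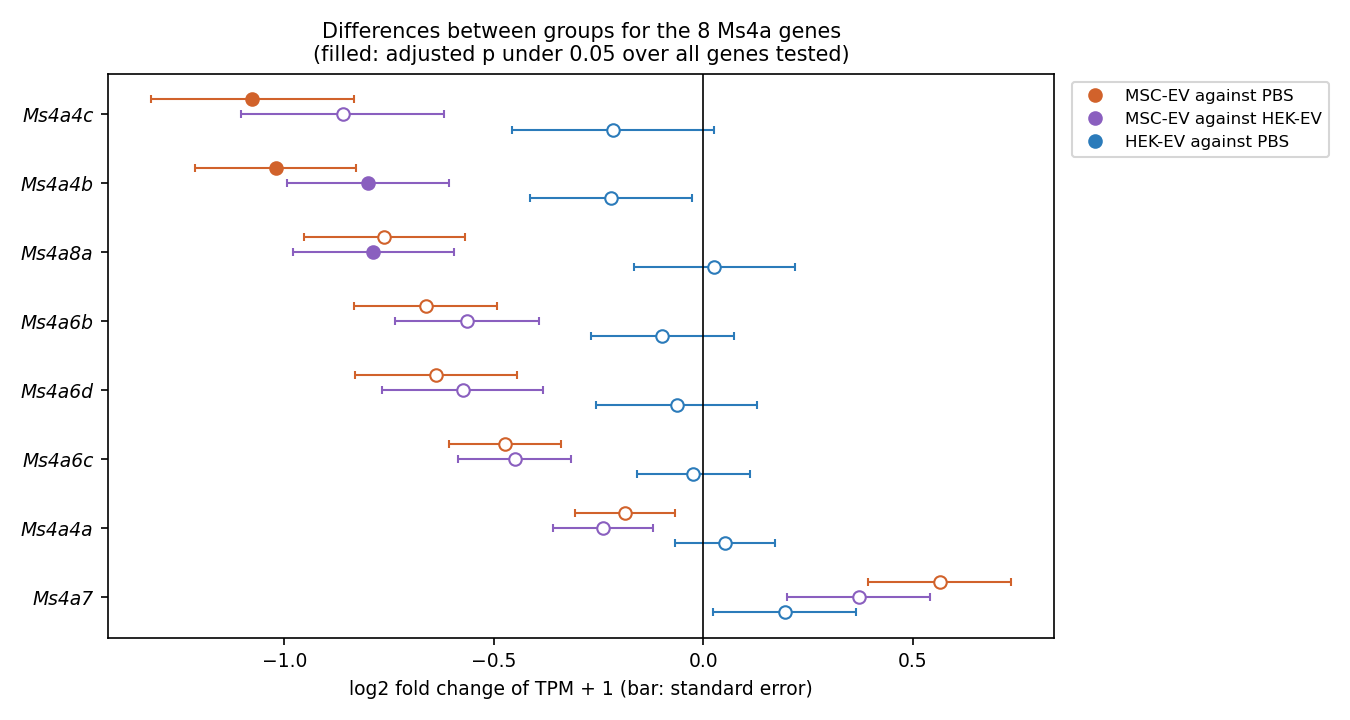
Log2 fold change of TPM + 1 with its standard error for each of the 8 genes in 3 comparisons, filled where the adjusted p over all genes tested was under 0.05. Ms4a4b and Ms4a4c are filled for MSC-EV against PBS, Ms4a4b and Ms4a8a for MSC-EV against HEK-EV, and none for HEK-EV against PBS.

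Groups that did not overlap were counted for MSC-EV against PBS in 5 of the 8 genes (Ms4a4b, Ms4a4c, Ms4a6b, Ms4a6c and Ms4a8a), all lower. Over all genes tested, 26% had groups that did not overlap and 14.9% did so with MSC-EV lower. PBS replicate 1 sets this count: against PBS replicates 2 and 3 alone, the MSC-EV samples were all lower for 7 of the 8, as they were for 19.4% of all genes tested. Which of the 8 passed the threshold also depended on single libraries. Without PBS replicate 1 all 8 passed, with Ms4a4b at -1.29 and Ms4a4c at -1.40, in a fit where 13.5% of all genes passed. Without PBS replicate 2, PBS replicate 3, MSC-EV replicate 1 or MSC-EV replicate 2 the count of the 8 genes that passed was 0, and 5 to 59 of all genes passed. Ms4a4b had an adjusted p of 0.118, 0.0956, 0.108 and 0.0807 in these 4 fits and 0.051 without MSC-EV replicate 3. Ms4a4c had 0.152, 0.133, 0.138 and 0.114, and 0.0658 without MSC-EV replicate 3, and it also missed the threshold without HEK-EV replicate 2 (0.0578) or 3 (0.0538). Without MSC-EV replicate 3, Ms4a7 (0.74, adjusted p = 0.0376) and Ms4a8a (-0.92, adjusted p = 0.0453) passed in their place. The directions of all 8 were kept in each of these fits. Ms4a4b and Ms4a4c also missed the threshold without the filter on low values (0.0618 and 0.095), in the 6 samples compared (0.0585 and 0.0685) and with the acinar split as a term (0.123 and 0.139). Ms4a4c missed it as well with FPKM (0.0528), median-of-ratios scaling (0.0535) or quantile normalization (0.0502).

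Setting HEK-EV against PBS asks whether vesicles from another cell source left the same genes at the level of the controls. None of the 8 genes passed the threshold. The log2 fold changes lay between -0.22 (Ms4a4b and Ms4a4c) and 0.19 (Ms4a7), each with limma adjusted p = 0.999, and the 3 samples of each group overlapped for all 8. Of all genes tested, 0% passed, at a smallest adjusted p of 0.944, while 3.58% (495) had an unadjusted p under 0.05 and 7.81% had groups that did not overlap, 2.29% with HEK-EV lower. The median of the 8 was -0.04, beside 0.0282 over all genes tested. With SEs of 0.119 to 0.242, a missed threshold does not show that the levels were alike. Mean TPM in HEK-EV and PBS were nearest for Ms4a8a, at 64.9 ± 9.38 and 64.6 ± 15.6 TPM (SD, n = 3). On the log2 scale the smallest difference was that of Ms4a6c, at -0.0235, with Ms4a8a at 0.0261.

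The comparison of MSC-EV with HEK-EV sets both vesicle sources side by side. Levels of 7 of the 8 genes were lower in MSC-EV with no overlap, and Ms4a7 was the exception. Of all genes tested, 30.1% had groups that did not overlap, 17.5% with MSC-EV lower. Ms4a4b and Ms4a8a passed the threshold, both lower, where 5.91% of all genes passed, 1.51% higher and 4.4% lower. With FPKM, median-of-ratios scaling or quantile normalization the share of passing genes that were higher was 59.5%, 46.3% and 45.5%, against 25.6% here, and none of the 8 passed. The median over the 8 was -0.57, beside -0.0174 over all genes tested. Both calls rested on few samples: Ms4a4b had an adjusted p of 0.0772 to 0.133 without any 1 of the HEK-EV or MSC-EV samples. Ms4a8a had 0.0764 to 0.162 when any HEK-EV sample, or MSC-EV replicate 1 or 2, was left out, and 0.0636 without PBS replicate 2. Without PBS replicate 1, which takes part only in the shared estimate of spread, 6 of the 8 passed, all but Ms4a4a and Ms4a7. In that fit 9.91% of all genes passed. This comparison and that of MSC-EV with PBS share the MSC-EV samples, so their values are no separate evidence of each other.

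The make-up of the family's RNA also differed by group. Ms4a4c took 15.5% to 16.6% of the summed TPM of the 8 in MSC-EV, against 19.03% to 22.4% in HEK-EV and 19.3% to 24.6% in PBS. Ms4a4a took 13.3% to 14.0% in MSC-EV, above its 11.1% to 11.8% in HEK-EV and 9.96% to 11.4% in PBS. Ms4a7 took 4.85% to 7.70% in MSC-EV, 3.11% to 3.68% in HEK-EV and 1.998% to 4.56% in PBS. By contrast the shares of Ms4a6c (33.0% to 34.1% in MSC-EV, 30.0% to 33.3% in PBS) and Ms4a6d (12.3% to 14.3% and 12.9% to 14.2%) overlapped between groups. The ratio of Ms4a7 to Ms4a4c, chosen after the values were seen, needs no scaling between samples. It was 0.236, 0.0813 and 0.109 in PBS, 0.163, 0.193 and 0.157 in HEK-EV and 0.449, 0.495 and 0.291 in MSC-EV. The highest ratio outside MSC-EV was that of PBS replicate 1, and the lowest inside was that of MSC-EV replicate 3.

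**Figure D4:**
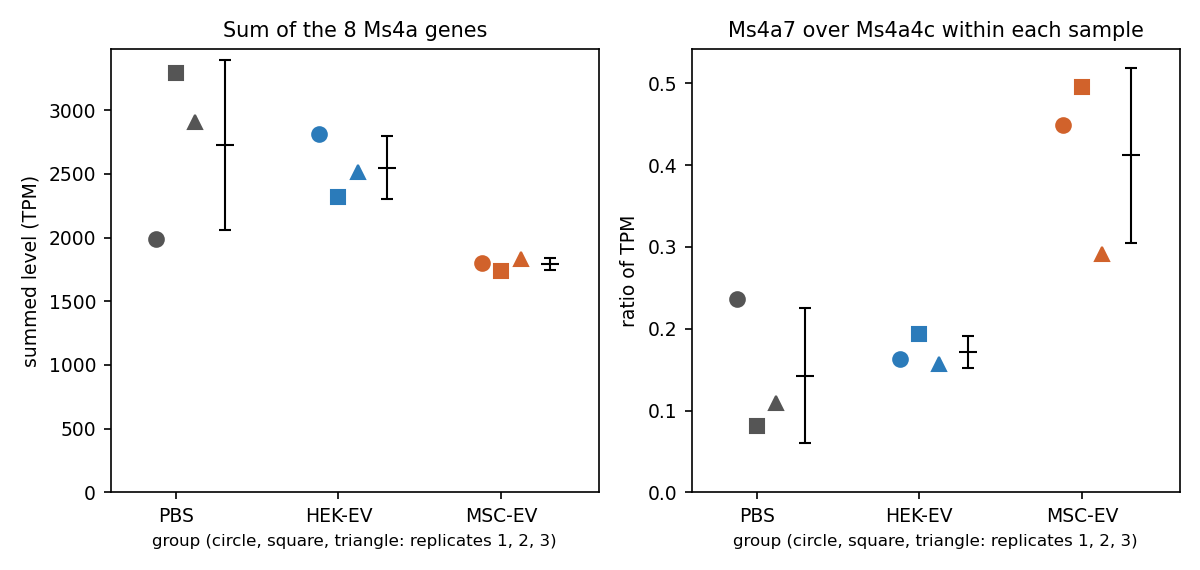
Sum of the TPM of the 8 genes (left) and ratio of Ms4a7 to Ms4a4c TPM (right) in each sample by group, with mean and SD (black, n = 3 per group). The MSC-EV sums are 1742 to 1832 TPM and the ratios 0.291 to 0.495, and PBS replicate 1 (grey circle) is the PBS sample nearest to them in both.

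Across the 9 samples 5 of the 8 genes varied closely together and Ms4a7 ran against them. Among Ms4a4b, Ms4a4c, Ms4a6b, Ms4a6c and Ms4a6d, the 10 pairwise Pearson correlations of log2(TPM + 1) were 0.92 to 0.99, and 0.80 to 0.98 after the group means were removed. These are descriptions over 9 samples that share libraries and the scaling of TPM, and the group means removed are those of 3 samples each. Inside groups, Ms4a4c varied most in PBS (SD 220 TPM, against 96.8 in HEK-EV and 17.8 in MSC-EV), where replicate 1 was lowest. How far PBS replicate 1 sets these correlations was not tested. Ms4a7 was negatively correlated with the other 7, at -0.89 to -0.64, and at -0.84 to -0.40 with group means removed, its strongest opposition being to Ms4a8a. Ms4a4a varied closely with those 5 genes inside groups, at up to 0.99 with Ms4a6b and Ms4a6c, even though its group means differed little. Ms4a8a was less close to those 5 genes, at 0.83 to 0.88, and at 0.46 to 0.61 with group means removed.

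**Figure D5:**
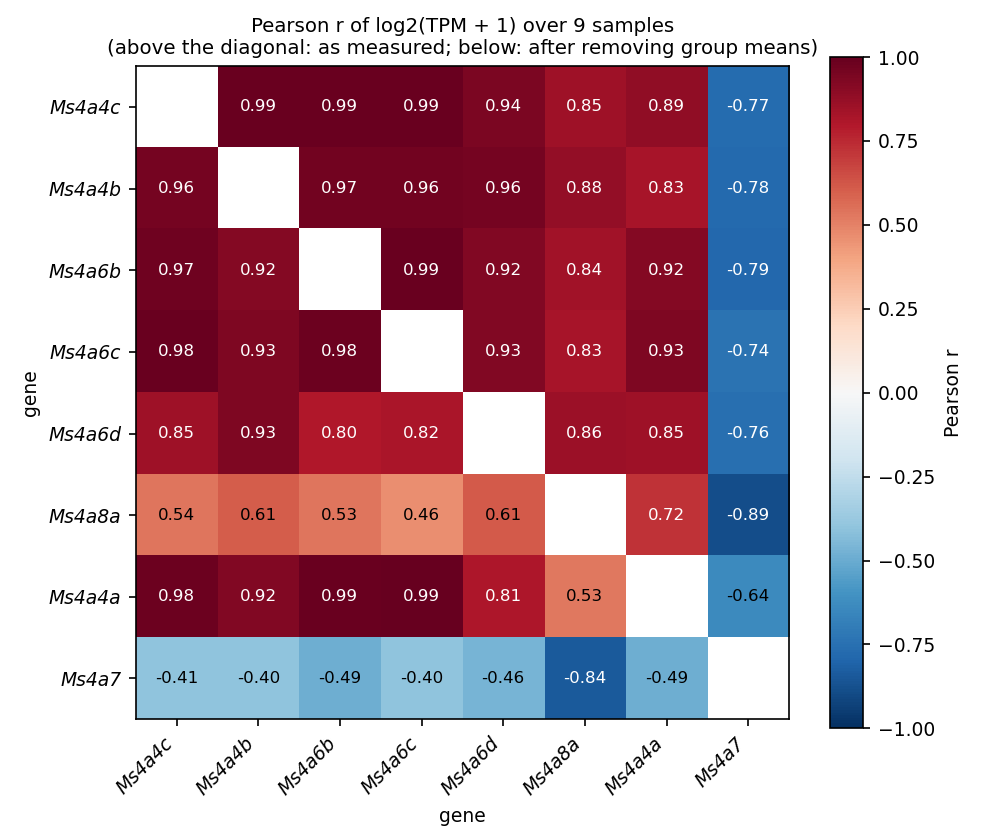
Pearson r of log2(TPM + 1) for each pair of the 8 genes over 9 samples, as measured (above the diagonal) and after removing group means (below). The pairs among Ms4a4b, Ms4a4c, Ms4a6b, Ms4a6c and Ms4a6d are all at 0.92 or more above the diagonal, and every pair with Ms4a7 is negative.

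The genes with the most similar pattern were sought among 9668 genes with a symbol and a mean of at least 5 TPM, and the 3 of highest Pearson r over the 9 samples are given, with no p. Ms4a4b was most like Tmsb10 (0.995), Ly6c1 (0.994) and Ly6c2 (0.990), the last being the gene of the monocyte antigen Ly6C. Ms4a4c was most like Ms4a6b (0.989), Ogfr (0.989) and the oligoadenylate synthetase gene Oas3 (0.988). Ms4a6b was most like Ms4a6c (0.990), Ms4a4c (0.989) and the interferon-inducible Ifi209 (0.988), and Ms4a6c like Sppl2a (0.992), Ms4a6b (0.990) and Atp10a (0.987). Ms4a6d was most like H2-T24 (0.983), Slc28a2 (0.976) and Oasl1 (0.975). Members of the family were thus among each other's nearest 3 for Ms4a4c, Ms4a6b and Ms4a6c. Ms4a8a was most like the chitinase-like gene Chil4 (0.984), Fam102a (0.983) and Unc119 (0.982), and Ms4a4a like Atp10a (0.958), Ostm1 (0.958) and Azi2 (0.942). Ms4a7 was most like Ptafr (0.958), the receptor gene of platelet-activating factor, Homer3 (0.955) and Prdx1 (0.954).

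Beyond the 8, few genes of the wider family were present. Of 16 further genes named, 15 were found in the tables, and 3 passed the filter: Ms4a14 and the more distant relatives Tmem176a and Tmem176b, which lie on chromosome 6. Tmem176b was at 123 to 195.8 TPM and Tmem176a at 47.1 to 74.9 TPM over the 9 samples, with overlapping groups. In none of the 3 comparisons did any of these pass the threshold. Ms4a14, which ends 5161 bases from Ms4a7, was at 7.45, 6.27 and 7.75 TPM in PBS, 7.82, 6.03 and 7.68 in HEK-EV and 10.3, 10.5 and 8.09 in MSC-EV. The MSC-EV samples were above all others, and HEK-EV overlapped PBS. The log2 fold change against PBS was 0.38 (SE 0.133, limma adjusted p = 0.126). Of the other 12, Ms4a1, the gene of CD20, reached the highest level, 2.23 TPM in HEK-EV replicate 2, and 8 were listed at 0 in all samples. Among B cell genes, 6 of 11 passed the filter and 0 the threshold, with summed levels of 273.8 to 353 TPM in PBS, 294.5 to 366 in HEK-EV and 357 to 380.0 in MSC-EV. Mast cell and basophil genes, whose defining Cpa3 and Fcer1a did not exceed 0.60 TPM, had 4 of 11 past the filter and 0 past the threshold. They summed to 97.7 to 121, 126 to 184 and 114 to 142 TPM in the same order, of which Hdc, the histidine decarboxylase gene, made up nearly all (94.4 to 181 TPM over the 9 samples).

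Among 16 genes of the TREM2 and Dectin-1 pathways, 4 passed the threshold in MSC-EV against PBS. Beside this and the lists below, 5.11% of all genes tested passed in that comparison, and 5.91% in MSC-EV against HEK-EV. Without PBS replicate 1 these shares were 13.5% and 9.91%. Against PBS the share was 0.0362% to 0.427% without PBS replicate 2 or 3 or MSC-EV replicate 1 or 2. Trem2, a lipid-sensing receptor of macrophages, rose from 307 to 417 TPM in PBS to 461 to 528 in MSC-EV (0.54, SE 0.1198, limma adjusted p = 0.038). Plcg2, the phospholipase downstream of these receptors, fell (-0.48, SE 0.0893, adjusted p = 0.0263), as did Malt1 (-0.31, adjusted p = 0.0374) and the receptor gene Trem3 (-0.95, adjusted p = 0.0386). The median of the 16 was -0.17. The Dectin-1 gene Clec7a, at 497 to 592 TPM in PBS and 497 to 664 in MSC-EV, was not among them (0.09, adjusted p = 0.734). In MSC-EV against HEK-EV, Trem2 was higher and 5 genes were lower (Plcg2, Card9, Trem3, Malt1 and Inpp5d). The count of 4 became 0 without PBS replicate 2 or 3 or MSC-EV replicate 1 or 2, and 6 without PBS replicate 1. It was 2 when HEK-EV replicate 1 was left out and 1 when either HEK-EV replicate 2 or MSC-EV replicate 3 was. Without any 1 HEK-EV sample, or MSC-EV replicate 1 or 2, the count against HEK-EV of 6 was 0, and without MSC-EV replicate 3 it was 3.

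Marker genes of several cell types moved with the Ms4a genes, and their part in the Ms4a differences was not tested. Of 11 Ly6C-high monocyte genes, 6 fell in MSC-EV against PBS and 0 rose, with a median of -0.99. They were Vcan (-1.42), Ifitm6 (-1.11), Chil3 (-1.40), Ly6c2 (-1.35), Plac8 (-1.35) and Gsr (-0.63), at limma adjusted p-values of 0.0251 to 0.0477. The summed level of the 11 was 6785 to 13488 TPM in PBS, with replicate 1 the lowest, 8678 to 11040.1 in HEK-EV and 4221 to 5171 in MSC-EV. Without PBS replicate 2, PBS replicate 3, MSC-EV replicate 1 or MSC-EV replicate 2 the count of 6 was 0. It was 8 without PBS replicate 1, 4, 1 and 5 without HEK-EV replicates 1, 2 and 3, and 3 without MSC-EV replicate 3. Against HEK-EV 7 of the 11 fell, a count that was 0 or 1 when any HEK-EV sample, or MSC-EV replicate 1 or 2, was left out, and 4 without PBS replicate 2 or MSC-EV replicate 3. Of 18 genes of macrophage differentiation, 3 rose (Apoe, Gpnmb and Trem2) and 0 fell, with a median of 0.16 and sums of 15514 to 17288, 17965 to 19446 and 25519.7 to 28065 TPM. Apoe, the lipid carrier gene that accounts for much of that sum, was at 4197 to 6431 TPM in PBS and 11487 to 12920 in MSC-EV. This count of 3 was 7 without PBS replicate 1, 0 without PBS replicate 3 or MSC-EV replicate 1, 1 without PBS replicate 2 or MSC-EV replicate 2, and 2 when HEK-EV replicate 1 or 2, or MSC-EV replicate 3, was left out. Against HEK-EV it was 4, with Cd68 added, and 0 when any HEK-EV sample, or MSC-EV replicate 1 or 2, was left out.

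Interferon response genes also had lower levels in the samples with lower Ms4a levels. Of 22, 4 fell in MSC-EV against PBS (Oas1a, Oas3, Mx2 and Oasl1, between -0.55 and -1.01) and all 22 had a negative fold change, with a median of -0.76. Their sum was 3322 to 5891 TPM in PBS, 3509.9 to 4442 in HEK-EV and 2323 to 3138 in MSC-EV. The count of 4 was 20 without PBS replicate 1, in a fit where 13.5% of all genes passed. The count was 0 without PBS replicate 2 or 3, HEK-EV replicate 2 or MSC-EV replicate 1 or 2. It was 3 and 2 without HEK-EV replicates 1 and 3 and fell to 1 when MSC-EV replicate 3 was left out. Against HEK-EV 0 of the 22 passed, but all 22 were negative, with a median of -0.52 beside -0.0174 over all genes tested. In HEK-EV against PBS 0 genes passed in this or any other list. All 22 interferon response genes were negative there too, with a median of -0.21 beside 0.0282 over all genes tested.

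Other cell types were measured in the same way, in MSC-EV against PBS. Kupffer cell genes (13 tested) had 0 past the threshold and a median of -0.45, with Clec4f at 538 to 669 TPM in PBS and 265 to 498 in MSC-EV. Endothelial genes (10) had 0 past it, with all 10 negative and a median of -0.79. Dendritic cell genes (11) had 0 past it and went both ways, from -0.28 to 0.91. Neutrophil genes (12) had a median of -0.22, with 9 of 12 negative, and 1 past the threshold, Ltf, which rose from 2.88 to 2.99 TPM in PBS to 4.76 to 7.43 in MSC-EV. The calgranulin gene S100a8 was at 929 to 1757 TPM in PBS, 1449 to 2096 in HEK-EV and 770.3 to 1114 in MSC-EV, while the neutrophil surface gene Ly6g did not exceed 4.50 TPM. Of 8 natural killer cell genes, all positive with a median of 0.50, Nkg7 rose, to 2.93 to 4.26 TPM, with Ncr1 at 2.47 TPM or less. Hepatocyte genes had 3 of 12 higher and 0 lower (Apoa1, Cyp2e1 and Trf), with all 12 positive and a median of 0.71. Biliary genes had 6 of 8 higher and 0 lower, Epcam and Krt19 among them, with all 8 positive and a median of 0.94. Biliary genes summed to 12.8 to 16.2 TPM in PBS and 25.6 to 37.7 in MSC-EV, hepatocyte genes to 438 to 523 and 727 to 841. The counts of the neutrophil, natural killer cell, hepatocyte and biliary lists were all 0 without PBS replicate 2, PBS replicate 3 or MSC-EV replicate 2. Without HEK-EV replicate 1, 6 endothelial genes passed, in a fit where 4.33% of all genes did. Against HEK-EV, neutrophil genes had a median of -0.63, with Stfa2l1 and Csf3r lower and Ltf higher past the threshold. Of the 12, 9 were negative and 3 positive. Groups did not overlap for 10 of the 12, in either direction, as for 30.1% of all genes tested. In that comparison 6 of 12 hepatocyte genes (median 0.85), 6 of 8 biliary genes (0.73) and Nkg7 rose, and 0 Kupffer cell, endothelial or dendritic cell genes passed. These counts against HEK-EV were 0 without HEK-EV replicate 1 or 2 or MSC-EV replicate 1 or 2.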

How the data were processed

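CD11b+ liver cells gave Trizol-extracted RNA, from which TruSeq Stranded mRNA libraries were prepared, per the labels' protocols. Reads were processed with HISAT2 2.1.0 and StringTie on mm10, per the submitters' processing notes. The strand setting of the counting is not given in the sources used here. Each sample had 1 table of genes, in which TPM, deposited by the authors, sum to 1000000 a sample, FPKM as deposited by the authors differ from them by 1 factor a sample, and coverage, per the file headers, is the mean number of reads over the bases of a gene. No read counts were in use, so no count test was made.

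Gene IDs were matched to RefSeq symbols (GRCm38.p6) for 45679 of 45777 (99.8%), and rows of a gene were summed. Differences of log2(TPM + 1) were tested in R 4.3.3 by limma 3.58.1, with lmFit, contrasts.fit and eBayes with trend, 9 samples in 1 fit, two-sided, with Benjamini-Hochberg adjustment over the 13820 genes tested and a threshold of 0.05. An exact permutation test of 3 against 3 samples cannot go below 0.1 and was not made. The method was tested on simulated data, and no error rate from them is given here. The alternatives are those of the closing section.

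The members and gene lists were chosen with earlier results of these data known. All 8 members are named, with the tested genes of the rest of the family, up to 4 genes of smallest p of each list among those past the threshold, and the 3 genes most like each member. Further genes named (Plac8 and Gsr, Epcam and Krt19, Inpp5d and Malt1, marker levels such as Clec4f, Ly6g and Cd3e) were chosen after their values were seen. Protein sequences were not used here, and a planned protein alignment was replaced by global alignment of coding sequences from GENCODE M21. Sequences were aligned with Biopython 1.88, tables handled with pandas 2.3.3 and numpy 2.4.6, and plots drawn with matplotlib 3.10.9, in Python 3.11.15.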

Additional observations from a re-analysis of the deposited data

How the results depend on the processing

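Under 20 alternatives, each of the 8 members kept its direction in MSC-EV against PBS and in MSC-EV against HEK-EV, but which of them passed the threshold did not stay fixed. In MSC-EV against PBS, 706 genes and 2 members passed. Without a filter these were 361 and 0, in the 6 samples compared 77 and 0, with the acinar split as a term 21 and 0, with array quality weights 4163 and 8, and with depth (the ratio of coverage to FPKM) as a covariate 1457 and 6. FPKM, median-of-ratios scaling and quantile normalization each left 1 member past it. Leaving out 1 sample gave 5 genes (without PBS replicate 2) to 1861 (without PBS replicate 1), and 0 to 8 members. The members' median was -1.08 with depth and -0.89 to -0.49 with 1 sample left out. In MSC-EV against HEK-EV, 817 genes and 2 members passed. Without a filter these were 387 and 0, with FPKM 459 and 0, with median-of-ratios scaling 512 and 0, with weights 2081 and 5, and with depth 1511 and 6. Quantile normalization and the acinar split left 0 members, with 694 and 550 genes, and the 6 samples compared gave 1098 genes and 6 members. Leaving out 1 sample gave 0 to 1369 genes and 0 to 6 members. The causes were not tested. In HEK-EV against PBS no filter gave 4 genes, and leaving out 1 sample 0 to 2, while 0 members passed throughout. The members' median there was -0.32 with weights, -0.29 with depth and -0.25 to 0.08 with 1 sample left out. The small differences of HEK-EV from PBS, none past the threshold, changed sign for Ms4a4a (-0.16 with weights, -0.11 with depth), Ms4a6c (0.0047 after quantile normalization) and Ms4a8a (-0.0071 with median-of-ratios scaling, -0.054 with weights, -0.24 with depth). With 1 sample left out they ranged from -0.096 to 0.17 for Ms4a4a, -0.32 to 0.075 for Ms4a6b, -0.19 to 0.11 for Ms4a6c, -0.31 to 0.087 for Ms4a6d and -0.17 to 0.18 for Ms4a8a.

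Deviations of same-numbered samples from their group means correlated at -0.50 to 0.06, and those of different numbers at -0.28 to 0.55. Within a group such deviations are not independent, so these correlations cannot decide whether replicate numbers pair the samples. With the replicate block, 404 genes passed in MSC-EV against PBS and 448 in MSC-EV against HEK-EV, where 1 member, Ms4a8a, passed. Against PBS the block left 2 members past the threshold, with Ms4a4c lost (adjusted p = 0.0702) and Ms4a8a gained (adjusted p = 0.0167).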
